A study of Sus scrofa with 30 samples.

Results

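The genes described here encode the protein components of the cytosolic ribosome in the sow mammary gland. They were taken from the table of transcript levels by symbol: RPSA, RPLP0, RPLP1, RPLP2, and every RPL or RPS symbol followed by a number and at most 1 of the letters A, X, Y or L, with the RPS6K kinases left out. The pig reference names 80 genes that fit, and 78 of them were in the table, as 78 of 26019 genes and assembled loci and as 131 of 61773 transcripts. RPL10L and a second RPL18 entry on chromosome 1 (84378453 to 84379052) were not in the table and are not analysed here. There were 32 genes of the small subunit and 46 of the large subunit, the latter including the stalk genes RPLP0, RPLP1 and RPLP2.

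Mammary parenchyma came from multiparous Danish Landrace × Yorkshire half-sibling sows, 6 to a stage, with no further treatment or genotype given. The stages were day 70 of gestation (mid-gestation, MG), day 110 of gestation (late gestation, LG), day 2 postpartum (early lactation, EL), day 10 postpartum (peak lactation, PL) and day 2 after weaning (early involution, W2). In each stage 3 of the 6 columns (MG 1, 3 and 6, LG 1, 3 and 4, EL 3, 4 and 6, PL 2, 3 and 6, W2 2, 3 and 6) differed from each other by a median of 5.70 to 64.6% over the ribosomal protein transcripts, whereas the other 3 differed from each other by at most 0.0508% and lay at the mean of the first 3. Those near-identical columns were not counted as animals, so n = 3 per stage throughout, and a two-sided exact permutation test of 3 samples against 3 cannot go below p = 0.10. The sample titles and the stage entered under genotype disagree for MG and EL, which are swapped. Titles were followed here, and the beta-casein gene CSN2 averaged 46799 units in the samples titled EL against 9818 in those titled MG. Every sample adds up to between 997480 and 1002600 units, so a value is close to a share of all transcripts of the sample. The table holds no read counts, and read depth was not used here.

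Each ribosome is built from a small subunit, which reads the messenger RNA, and a large subunit, which joins the amino acids, and most ribosomal proteins are needed once per particle. Their messenger RNAs begin with a tract of pyrimidines (a terminal oligopyrimidine, or TOP, motif) through which their translation is regulated together. In a lactating gland the secretory cells direct most of their translation to caseins and whey proteins. The values below are shares of a pool of messenger RNA, so a gene can fall because its own RNA becomes scarcer or because other RNA, such as that of milk proteins, takes a larger part of the pool. In bulk tissue, fewer cells of a type and less RNA per cell cannot be told apart.

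Ribosomal protein transcripts took up a steady share of all units in gestation and after weaning, and their share was lowest at peak lactation. The share was 20.4, 21.7 and 19.8% in the 3 MG samples, with a mean of 20.6% ± 0.990 (SD, n = 3). In LG it was 19.8% ± 0.906 (n = 3), and in EL it was 16.7% ± 2.37, where sample 3 (19.3%) lay near the gestation samples and samples 4 and 6 (14.6 and 16.3%) lay below them. The 3 PL samples held 5.76, 9.43 and 11.4%, for a mean of 8.86% ± 2.85, and each lay below every sample of the other stages. At W2 the share was 20.8, 21.3 and 20.0%, for a mean of 20.7% ± 0.625, within the range of MG. No test was made on these shares, since the genes were grouped with results of these data known.

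**Figure D1:**
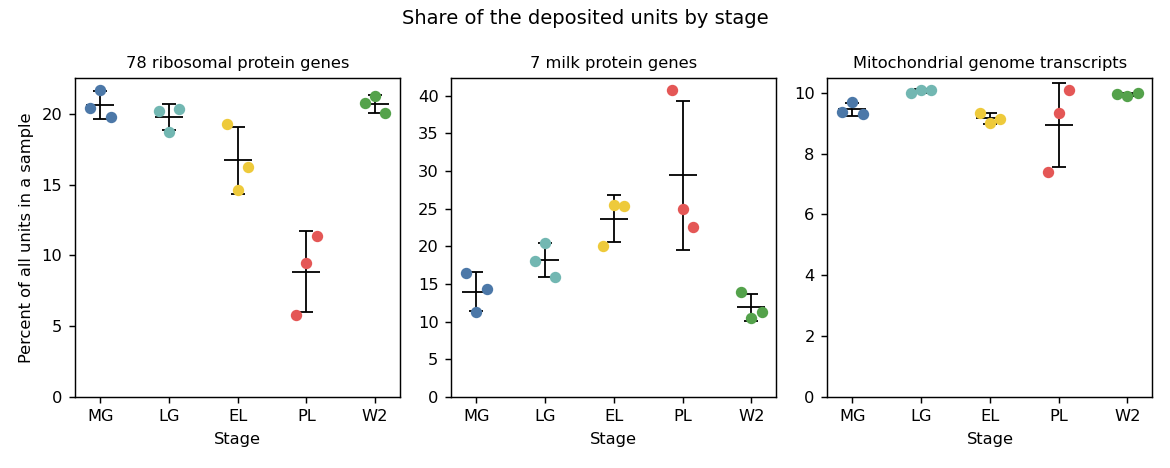
Percent of all units in a sample (vertical axes, each from 0 and scaled separately) held by the 78 ribosomal protein genes, by 7 milk protein genes and by mitochondrial genome transcripts, for the 5 stages. Points are the 3 counted samples, the cross bar is their mean and the whiskers are 1 SD, and the ribosomal protein points of PL, from 5.76 to 11.4%, lie below all others.

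Milk protein transcripts had their highest mean share in PL, although PL samples 3 and 6 lay within the range of EL. The summed share of CSN1S1, CSN1S2, CSN2, CSN3, LALBA, WAP and PAEP was 29.4% ± 9.88 in PL and 11.9% ± 1.78 in W2. It was 14.0% ± 2.57 in MG, 18.1% ± 2.26 in LG and 23.6% ± 3.12 in EL. Within PL, sample 2 had the highest milk protein share (40.8%) and the lowest ribosomal protein share. PL samples 3 and 6 had 24.9 and 22.6%, beside 20.0 to 25.5% in the EL samples. PAEP alone held 11.0 to 13.4% in PL, 13.4 to 14.9% in EL and 10.1 to 13.4% in MG. With milk protein and mitochondrial transcripts left out of the total, the ribosomal protein genes still held 14.1% ± 2.89 in PL, against 26.9% ± 0.932 in the MG samples. For LG this share was 27.5% ± 0.554, for EL 24.8% ± 2.49, and after weaning 26.5% ± 0.935. The lower share in PL was also present among the remaining transcripts. Both subunits fell together: the ratio of small to large subunit units had stage means between 0.718 ± 0.0182 (LG) and 0.745 ± 0.0442 (EL), with 0.737 ± 0.00937 at peak lactation.

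Markers of several other cell types differed between PL and MG, and others overlapped. Summed macrophage markers (3 of 4 listed genes measured) ranged from 42.3 to 61.9 units in PL, 153 to 174 in MG and 137 to 168 in W2, and the 4 fibroblast markers from 350 to 809 in PL, 1222 to 1714 in MG and 995 to 2093 in W2. The 4 T cell markers ranged from 4.71 to 14.5 units in PL and from 20.9 to 24.9 in MG, the 3 neutrophil markers from 5.55 to 27.3 in PL and up to 2.17 in MG, and 2 of 4 adipocyte markers from 249 to 386 in PL and 442 to 730 in MG. The EL samples overlapped those of PL for the fibroblast markers (659 to 973 units in EL) and the T cell markers (10.5 to 17.7). The 2 adipocyte markers went opposite ways, 1 higher and 1 lower in PL than in MG (limma adjusted p below 0.05). The adipocyte sum therefore shows the direction of only 1. PL and MG overlapped for the 5 luminal markers (771 to 1592 and 1150 to 1601 units), 4 of 5 basal markers (772 to 1948 and 1394 to 1518), 2 of 3 endothelial markers (62.8 to 87.1 and 85.3 to 134) and 3 of 4 B and plasma cell markers (710 to 893 and 672 to 2843). Of the skeletal muscle markers only MYH1 was in the table, at up to 1.71 units in PL and 0.149 in MG. With limma, 4 of 4 fibroblast, 2 of 4 T cell and 2 of 3 macrophage markers were called lower in PL vs MG, where 23% of all genes were. With samples scaled by the median ratio over genes of at least 10 units these were 1, 0 and 2, where 5.96% of all genes were. The part of these cell types in the ribosomal protein result was not tested.

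Single genes were compared between stages on log2(units + 0.5) summed over the transcripts of a gene, with limma fitted over all 26019 genes and Benjamini-Hochberg adjustment over all of them. A gene is called at an adjusted p below 0.05. The comparisons PL vs MG, PL vs EL and W2 vs PL all use the same PL samples. In PL vs MG, 70 of the 78 genes fell and none rose, where 25.2% of all genes were called and 23% were called lower. The median log2 fold change was -1.27 over the ribosomal protein genes and -0.57 over all genes, and the mean of the middle gene in PL was 43.2% of its mean in MG. By subunit, 29 of 32 small subunit genes and 41 of 46 large subunit genes fell, with medians of -1.26 and -1.27. In PL vs EL, 57 of 78 fell and none rose (background 4.62% called, 3.85% called lower), with a median of -0.99 against -0.22 over all genes. In W2 vs PL, 68 rose and none fell (background 32.8% called, 30.4% called higher), with a median of 1.28 against 0.68.

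These counts lean on the shared estimate of spread over the 5 stages. With only the 2 compared stages in the fit, 15 of 78 were called in PL vs MG, 24 in W2 vs PL and 0 in PL vs EL. In that PL vs EL fit 56 of 78 had an unadjusted limma p below 0.05, beside 3083 of all 26019 genes. In the fits of PL vs MG, W2 vs PL and PL vs EL with the compared stages alone, 6.75, 11.4 and 0.165% of all genes were called. PL vs EL also depended on the EL samples, with 17 called without EL sample 3 and 24 without EL sample 6 (background 1.66 and 2.04%). Without PL sample 2, the sample with the most milk protein RNA, 66 genes fell in PL vs MG, 57 fell in PL vs EL and 65 rose in W2 vs PL, with medians of -0.99, -0.70 and 0.99 (background 20.5, 7.53 and 26.8% called).

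The gestation stages and the change into early lactation gave no calls among the ribosomal protein genes with limma. In LG vs MG 0 of 78 were called (background 0.0115%), with a median of -0.06. There 2 of 78 had an unadjusted p below 0.05, beside 1154 of all 26019 genes. In EL vs LG 0 were called (background 0.0154%), and the median was -0.24 beside -0.22 over all genes. Again 2 had an unadjusted p below 0.05, beside 1609 of all genes. W2 vs MG also gave 0 calls (background 0.0115%) and 3 at an unadjusted p below 0.05, beside 804 of all genes. There the median was 0.02 (-0.060 with median ratio scaling, under which that of LG vs MG was 0.089), 48 genes had a higher and 30 a lower fitted level in W2, and the middle gene had 101% of its MG mean.

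Without any test, all 3 PL samples lay below all 12 samples of the other stages for 63 of the 78 genes, where 11.3% of all genes did so. PL sample 2 was the lowest of the 15 samples for 71 genes, but the same count was not made over all genes. That sample also had the fewest genes above 0 (21353, against 22693 to 23800 in the other counted samples). Over genes of at least 10 units, its median log2 difference from the gene means was -0.82, against -0.25 in PL samples 3 and 6. The 15 genes whose PL samples overlapped another stage were RPL3L, RPL4, RPL11, RPL13, RPL14, RPL23, RPL32, RPL35A, RPS9, RPS10, RPS15, RPS16, RPS19, RPS24 and RPS27A. Only 15 of 78 genes had every EL sample below every LG sample, beside 16% of all genes, and 2 had every LG sample below every MG sample, beside 11.4%.

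**Figure D2:**
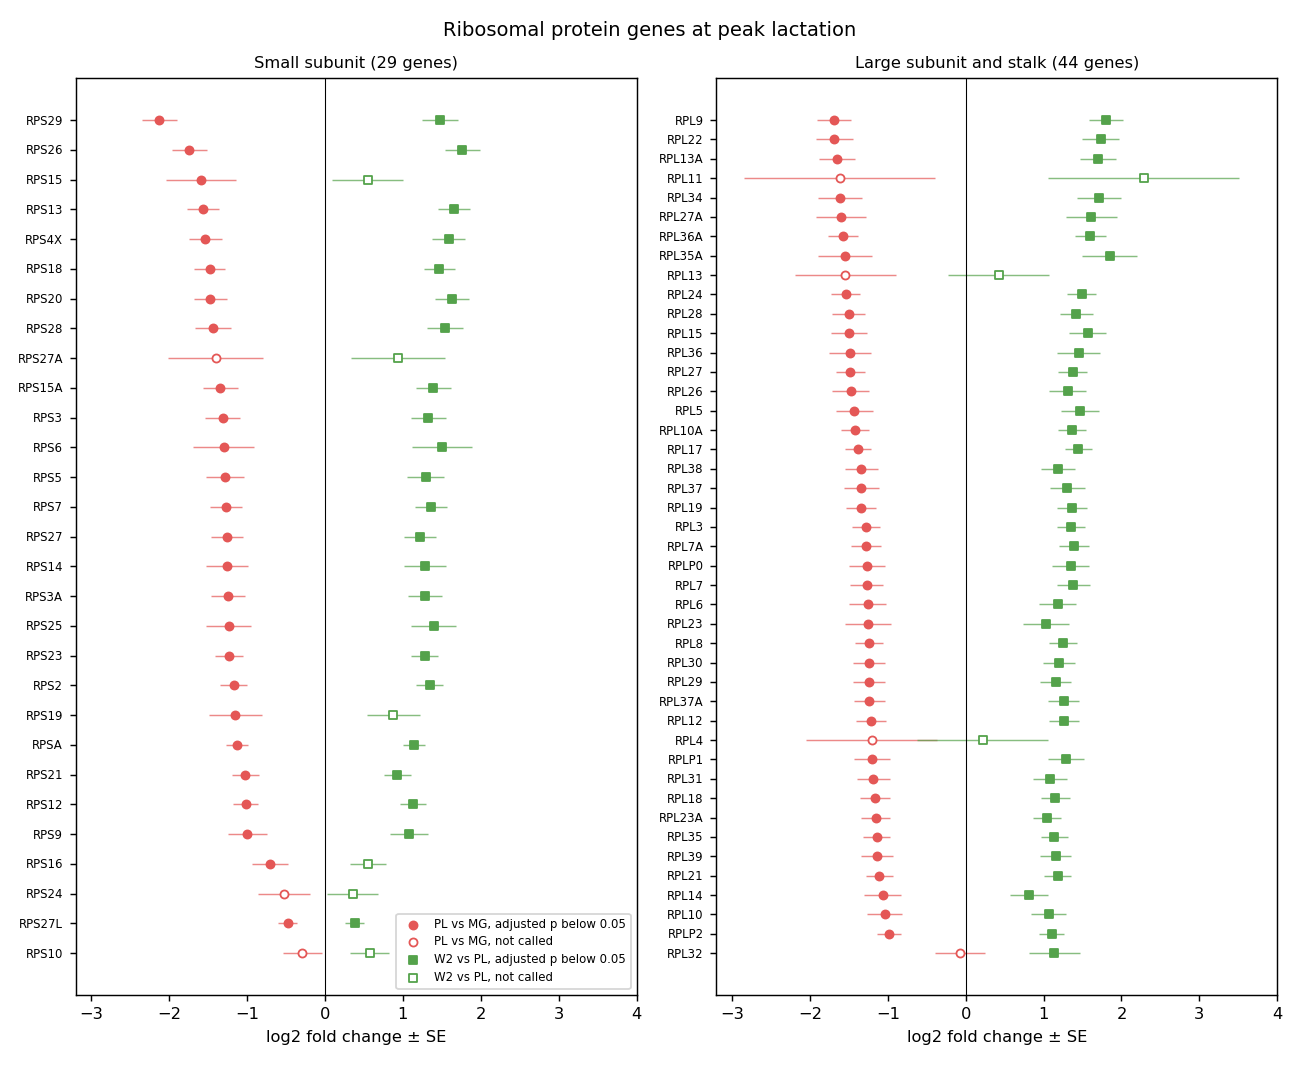
log2 fold change with its standard error (horizontal axis) for PL vs MG (circles) and W2 vs PL (squares) of 73 ribosomal protein genes, small subunit on the left and large subunit with the stalk on the right, sorted by PL vs MG. Filled symbols are called at an adjusted p below 0.05. RPL3L, under 1 unit in every sample, is left out with 4 others not reported here, and most genes lie near -1.27 and 1.28.

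Among small subunit genes RPS29 fell the most. RPS29, a small zinc-binding protein of the subunit head, lies on chromosome 1 (179454923 to 179456847). It measured 2033, 2320 and 1881 units in MG, with 1662 to 2138 units among the LG samples and 1442 to 1850 among those of EL. At PL it held 338, 530 and 594 units, and at W2 1192, 1090 and 1770. The PL samples lay below all others. Every EL and W2 sample also lay below every MG sample, while the LG samples overlapped with those of MG, EL and W2. RPS29 changed by -2.13 ± 0.23 (SE) in PL vs MG (limma adjusted p = 0.00014), the largest fall of any called member, and rose by 1.48 ± 0.23 in W2 vs PL (adjusted p = 0.00072). It was the only gene of the 78 to pass a minimum absolute log2 fold change of 2 as well, in PL vs MG, where 3.95% of all genes did.

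RPS26, a component of the messenger RNA exit region of the small subunit (chromosome 5, 21431656 to 21433691), followed. Its level was 3901 to 4315 units in MG and 3997 to 4304 in W2, and in PL it was 983, 949 and 2002 in samples 2, 3 and 6, below every other sample. It fell by 1.74 ± 0.23 in PL vs MG (adjusted p = 0.00042) and rose by 1.76 ± 0.23 in W2 vs PL (adjusted p = 0.0003). RPS13 and RPS18 of the same subunit changed by -1.57 and -1.48 in PL vs MG, and RPS20, among the most abundant members, fell from 5331 to 6159 units in MG to 1351, 2344 and 2908 in PL (-1.47 ± 0.21, adjusted p = 0.00077).

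RPS18, RPS12 and RPS3A were also among the highest small subunit genes, with means over the 15 samples of 4762, 4720 and 4266 units. RPS3A tracked the middle of the set: 5020, 5327 and 4675 units in MG, 1370, 2329 and 2950 in PL, and 5085, 5491 and 4834 in W2, for changes of -1.24 ± 0.22 (adjusted p = 0.002) and 1.28 ± 0.22 (adjusted p = 0.0013). RPSA, which also has a separate role as a laminin-binding protein at the cell surface, fell by 1.13 ± 0.14 in PL vs MG (adjusted p = 0.00036). RPS6, the substrate of the S6 kinases, was less even: MG samples 1 and 3 held 3102 and 3762 units and sample 6 held 1873, against 612 to 1721 in PL. It fell by 1.30 ± 0.39 in PL vs MG (adjusted p = 0.029). RPS19 and RPS14, known for mutation or loss in inherited or acquired anaemias, both fell in PL vs MG (adjusted p = 0.028 and 0.0064), RPS19 by 1.15 ± 0.34 and RPS14 from 1552 to 2077 units in MG to 431, 803 and 1073 in PL. RPS19 was not called in W2 vs PL (0.88 ± 0.34, adjusted p = 0.064), where W2 sample 2 (2014 units) lay below PL sample 6 (2488). RPS15 held 2844 to 3087 units in MG and 750, 1003 and 1237 in PL, but W2 samples 3 and 6 (1035 and 901) lay within the range of PL.

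At the other end of the small subunit, RPS10, RPS24 and RPS27A were not called in PL vs MG. RPS10 held 1280, 703 and 1011 units in MG and 560, 942 and 945 in PL, which overlap, and its fold change was -0.29 ± 0.25 (adjusted p = 0.42). RPS24 held 751 to 1241 units in MG and 563 to 938 in PL, which also overlap. RPS27A, translated as a fusion with ubiquitin, ranged within stages from 551 to 2466 units in EL and from 590 to 3098 in W2, and differed by -1.40 ± 0.61 in PL vs MG (adjusted p = 0.11). RPS16 fell by 0.70 ± 0.23 (adjusted p = 0.04), about as far as all genes at their median.

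In the large subunit, RPL9, RPL22 and RPL13A fell the most of the called genes. RPL9 (chromosome 8, 30693198 to 30699189) measured 1795, 2518 and 2587 units in MG, 601, 696 and 827 in PL and 1709, 3052 and 2816 in W2. It changed by -1.69 ± 0.22 in PL vs MG (adjusted p = 0.00038) and by 1.80 ± 0.22 in W2 vs PL (adjusted p = 0.0002), with no overlap of PL and the other stages. RPL22 (chromosome 6, 67092892 to 67102086) went from 2148, 2388 and 2251 units in MG to 438, 840 and 935 in PL and back to 2263, 2520 and 2227 in W2. Its fold changes were -1.69 ± 0.24 (adjusted p = 0.00062) and 1.73 ± 0.24 (adjusted p = 0.00041).

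RPL13A, which also takes part in translational silencing of inflammatory messenger RNAs (chromosome 6, 54551772 to 54568752), held 3087, 3245 and 3238 units in MG, 659, 1119 and 1420 in PL and 3557, 3189 and 3186 in W2. The PL samples lay below all others. It fell by 1.65 ± 0.23 in PL vs MG (adjusted p = 0.00065). RPL35A and RPL34 completed the largest rises in W2 vs PL, at 1.85 ± 0.35 (adjusted p = 0.0025) and 1.71 ± 0.28 (adjusted p = 0.0011). RPL35A held 618, 714 and 437 units in PL and 2158, 2155 and 1936 in W2, but EL sample 4 was also low, at 547 units.

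RPL5 and RPL11 form, with a ribosomal RNA, the complex that restrains MDM2 when assembly is disturbed, and they did not behave alike in the table. RPL5 held 2807, 3292 and 3253 units in MG and 721, 1358 and 1569 in PL, a change of -1.43 ± 0.24 (adjusted p = 0.0017). RPL11 ranged from 27.3 units in LG sample 1 to 2347 in W2 sample 2, with 523, 1009 and 1809 in MG and 82.0, 843 and 478 in PL. Its fold change of -1.62 ± 1.23 was not called (adjusted p = 0.36). RPL4 was similar in one respect: EL sample 4 and W2 sample 2 held 250 and 370 units, whereas the other samples outside PL held 2199 to 2853 units. RPL4 was not called in PL vs MG (-1.21 ± 0.84, adjusted p = 0.31), although its MG samples (2355 to 2767) and PL samples (700 to 1527) did not overlap, and a single assembled transcript was high in the samples where RPL4 was low (described under the other observations, as for RPL13).

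RPL32 and RPL13 completed the 5 large subunit genes not called in PL vs MG, with RPL3L. RPL32 was low in MG (1608, 906 and 1589 units) and PL (873, 1416 and 1616) alike, with a difference of -0.07 ± 0.32 (adjusted p = 0.91), and it was 3441, 2013 and 3082 in W2. An assembled transcript without a gene name was high in the MG samples (see RPL32 under the other observations). RPL32 itself rose by 1.14 ± 0.32 in W2 vs PL (limma adjusted p = 0.018), although without PL sample 2 the adjusted p was 0.076. RPL13 held 1279, 573 and 1281 units in MG and 357, 151 and 698 in PL, with overlap, and its difference of -1.55 ± 0.65 was not called (adjusted p = 0.098). It stayed as low as 172 units in W2 sample 2.

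The most abundant core large subunit genes, RPL23 and RPL6, both moved with the set. RPL23 had 5349 to 5764 units in MG, 1753, 2391 and 3022 in PL and 4519 to 4926 in W2, and fell by 1.26 ± 0.30 in PL vs MG (adjusted p = 0.010). RPL6 fell by 1.26 ± 0.24 in the same comparison (adjusted p = 0.0031). RPL15, among the least abundant members with a mean of 671 units over the 15 samples, fell from 749 to 880 units in MG to 185, 354 and 380 in PL (adjusted p = 0.0011). RPL14 fell by 1.07 ± 0.24 (adjusted p = 0.0082), although its highest PL sample (2047 units) lay above its lowest W2 sample (1973).

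The stalk proteins bind the translation factors at the entry side of the large subunit. RPLP1 was the most abundant of all 78 genes, with a mean of 7567 units over the 15 samples. It held 9311, 8968 and 8273 units in MG and 8530, 6068 and 6608 in EL. Its level was 2464, 4033 and 5700 units at PL and 9774, 9220 and 9104 at W2. The PL samples were the lowest, and RPLP1 fell by 1.20 ± 0.23 in PL vs MG (adjusted p = 0.0036) and was not called in PL vs EL (-0.86 ± 0.23, adjusted p = 0.056). RPLP0 changed by -1.27 ± 0.23 and RPLP2 by -0.98 ± 0.16 in PL vs MG (adjusted p = 0.0028 and 0.0013).

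Paralogues with a sex-linked, stress-related or muscle-related partner differed widely in level. RPS4X, the X-linked and generally used RPS4 gene (chromosome X, 58149302 to 58155179), moved with the set: 2975 to 3307 units in MG, 707, 1194 and 1444 in PL and 2951 to 3453 in W2 (-1.54 ± 0.21 in PL vs MG, adjusted p = 0.00059). RPS27L, a paralogue of RPS27 that is induced by p53, was low in every stage. It held 149, 162 and 170 units in MG, 106, 115 and 124 in PL and 140, 154 and 156 in W2, and it fell by 0.48 ± 0.12 in PL vs MG (adjusted p = 0.013), the smallest called fall. Its PL samples lay below all others. RPS27 itself had 3246, 3609 and 3395 units in MG and 988, 1559 and 1892 in PL. RPL3L, the copy of RPL3 used in heart and skeletal muscle, was between 0.167 and 0.776 units in all 15 samples, and it was the only member below 1 unit.

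Directions of single genes within PL depend on the scaling. With samples scaled by the median ratio over genes of at least 10 units, which moved the median of all genes in PL vs MG from -0.57 to -0.05, 59 ribosomal protein genes still fell and none rose in PL vs MG, with a median of -0.61 (background 5.96% lower and 5.04% higher). In W2 vs PL 52 rose and 1, RPS27L, fell (-0.36 ± 0.11, adjusted p = 0.048), with a median of 0.54 beside 0.09 over all genes (background 7.42% higher and 5.66% lower). Under this scaling RPS27L, RPS10 and RPL32 were among 5 members with positive fold changes in PL vs MG (0.18, 0.37 and 0.59 for these), none of them called.

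To compare the genes with one another, each sample was also scaled by the median of the ribosomal protein genes themselves. Most of the set kept fixed proportions: the SD over 15 samples of a gene's log2 difference from that median was 0.13 at the median, below 0.2 for 55 of 78 genes and lowest, at 0.042, for RPL37A. It exceeded 0.5 for 8 genes, RPL11, RPL4, RPL13, RPS27A, RPS15, RPL32, RPL3L and RPS24. On this relative scale 19 genes were called in PL vs MG, 11 lower and 8 higher, where 23.1% of all genes were called, 2.6% lower and 20.5% higher. RPS29 (-0.89 ± 0.16, adjusted p = 0.0024), RPS26 (-0.50), RPL22 (-0.45), RPL13A (-0.41) and RPL34 (-0.38) had the largest called falls relative to the others. Those that rose relative to the others were led by RPL32 (1.17 ± 0.30, adjusted p = 0.015), RPS10 (0.95 ± 0.21, adjusted p = 0.0074) and RPS27L (0.75 ± 0.16, adjusted p = 0.0052), with RPL3L (0.67), RPS16 (0.54), RPLP2 (0.25), RPS12 (0.22) and RPS21 (0.22) behind them. In W2 vs PL 17 were called on this scale, 12 higher and 5 lower (background 19.7% called, 3.35% higher and 16.3% lower), and the 5 were RPS27L (-0.86), RPS16 (-0.69), RPS10 (-0.66), RPL14 (-0.43) and RPS21 (-0.31). In PL vs EL 11 were called (background 25%), 8 lower (1.36%) and 3 higher (23.6%). RPL3L is below 1 unit, so its value on this scale depends on the added 0.5. RPS27L, RPS16, RPLP2, RPS12 and RPS21 were thus called lower in PL vs MG in deposited units and higher on this scale.

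**Figure D3:**
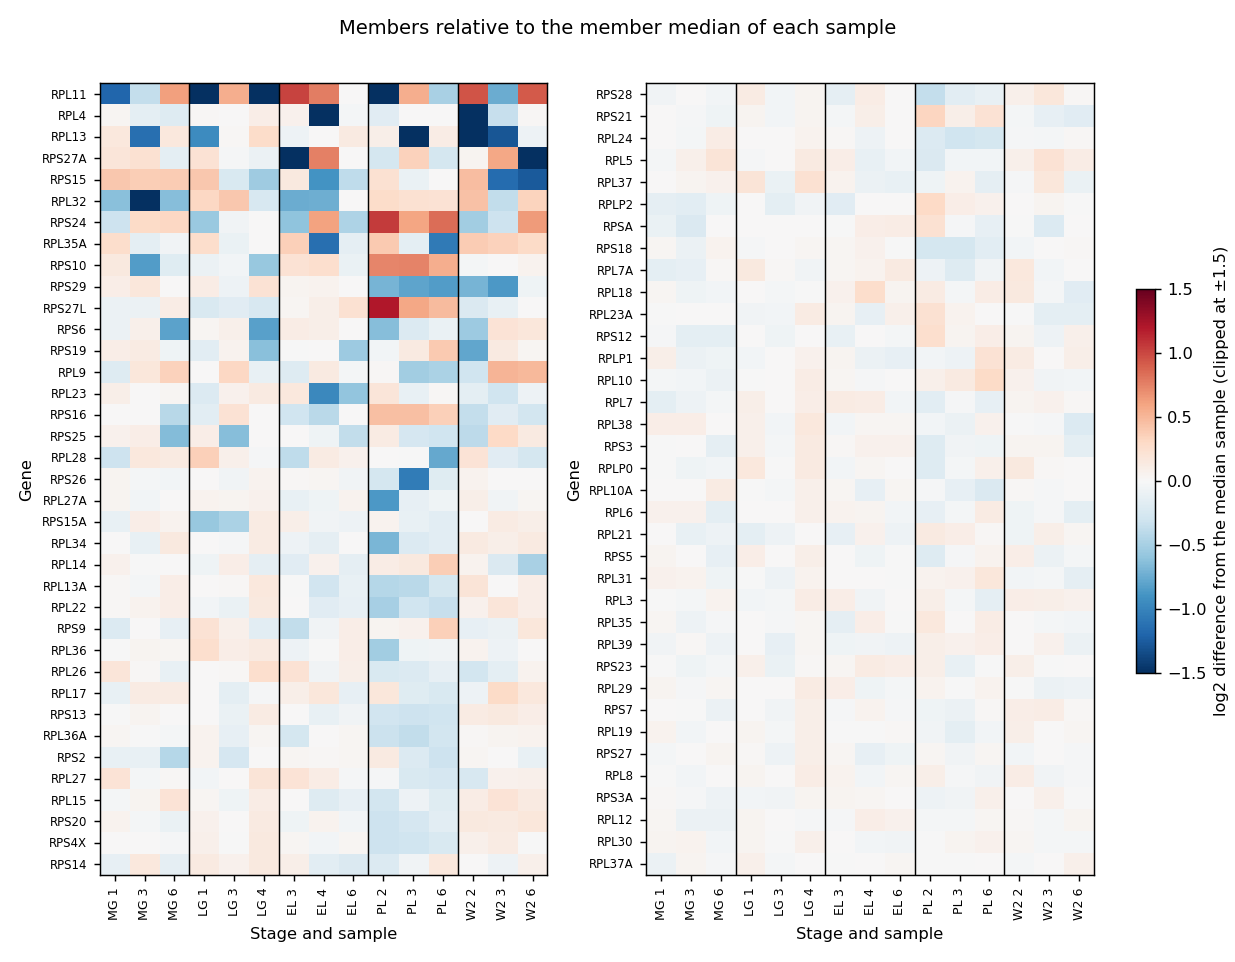
Log2 level of each of 73 genes (rows, by falling spread) relative to the median ribosomal protein gene of the same sample and centred on the gene's own middle sample, for the 15 counted samples (columns, stages parted by lines). Red is above and blue below, clipped at ±1.5. RPS29 is blue in all PL samples while RPS10 and RPS27L are red, and RPL4, RPL11 and RPL13 are dark in single samples of several stages.

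Genes with several annotated transcripts were also followed by transcript. Of the 78 genes, 30 had more than 1 transcript and 21 had at least 2 that each held 10% of the gene's units in some stage. The fit over all 61773 single transcripts called 71 of 131 ribosomal protein transcripts in PL vs MG (background 4.28%), 76 in W2 vs PL (7.13%) and 36 in PL vs EL (0.698%), all lower in PL. With a minimum absolute log2 fold change of 2 as well, 7, 9 and 4 were called (background 1.76, 2.84 and 0.408%). A split between overlapping transcripts of 1 gene is an estimate, and its error is not in the table.

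RPS10, whose summed level was not called, had a transcript that was called lower in PL and another that was not called. NM_001244106.1 held 460, 616 and 694 units in MG, 31.0, 42.3 and 140 in PL and 682, 633 and 529 in W2. The PL samples lay below all others, and its share of the RPS10 units went from 59.1% in MG to 8.73% in PL and 51.9% in W2. NM_001244106.1 fell by 3.34 ± 0.42 in PL vs MG (adjusted p = 0.0012) and rose by 3.41 ± 0.42 in W2 vs PL (adjusted p = 0.00086). The other transcript, XM_005665896.3, held 820, 87.5 and 317 units in MG and 529, 900 and 805 in PL, and its difference of 1.36 ± 0.66 was not called (adjusted p = 0.3).

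RPS29 split in a related way. XM_021101317.1 held 98.7% of the RPS29 units in MG and 74.8% in PL, and it fell by 2.53 ± 0.27 in PL vs MG (adjusted p = 0.00058). The minor XM_021101312.1 stood at 29.5, 20.9 and 28.4 units in MG and at 89.5, 128 and 150 in PL, a difference of 2.18 ± 0.65 that was not called (adjusted p = 0.079). In W2 it was 277 and 273 in samples 2 and 3 and 29.8 in sample 6. In W2 samples 2 and 3 the summed RPS29 level was also lower than in W2 sample 6.

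RPL10A and RPS3 had minor transcripts whose stage mean was highest after weaning. XM_021097852.1 of RPL10A held 1316, 1176 and 1257 units in W2 and 0, 348 and 113 in MG, or 45.9% of the gene's units against 5.43%, while LG and EL samples ranged from 15.2 to 1334. XM_021102267.1 of RPS3 held 236, 429 and 403 units in W2 and 1.82, 0 and 6.05 in PL. It rose by 7.46 ± 1.16 in W2 vs PL (adjusted p = 0.003), a size that depends on the added 0.5 because PL sample 3 is listed at 0. RPL9 had XM_013978597.2 listed at 0 in PL samples 3 and 6 and at 423 units in PL sample 2, while it held 401 to 2078 units in MG.

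**Figure D4:**
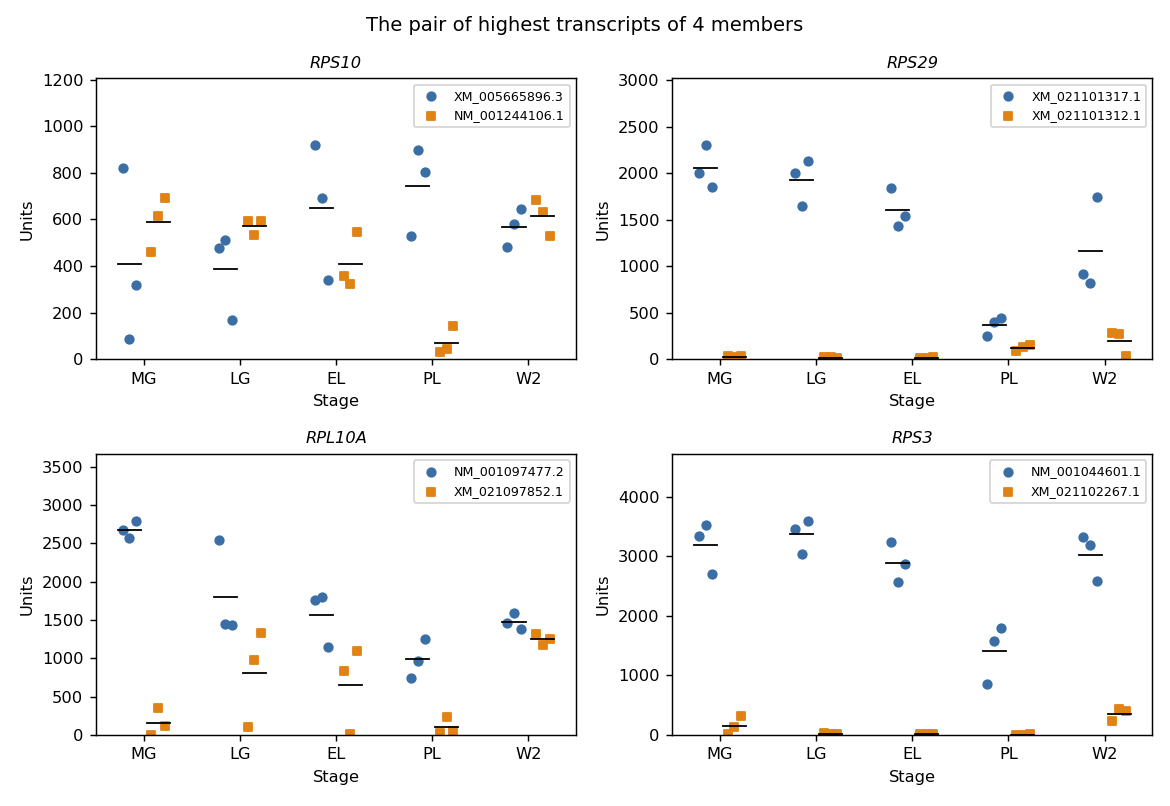
Units (vertical axes, from 0) of the pair of most abundant transcripts of RPS10, RPS29, RPL10A and RPS3 in the 3 counted samples of each stage, with lines at the means. NM_001244106.1 of RPS10 and XM_021101317.1 of RPS29 drop in PL, and the means of XM_021097852.1 of RPL10A and XM_021102267.1 of RPS3 are highest in W2.

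Other genes of the ribosome and of its production moved with the set to different degrees. FAU and RACK1, ribosomal components with other symbols, both fell in PL vs MG and rose in W2 vs PL. RACK1, a scaffold on the small subunit, averaged 3217 units in MG and 1297 in PL (-1.38 ± 0.23, adjusted p = 0.0018). The 4 further copies RPL7L1, RPL22L1, RPL26L1 and RPL36AL also all fell, beside the 23% of all genes called lower, with a median of -1.03. Without PL sample 2, 2 of the 4 fell, and with median ratio scaling 1 of 4 (median -0.38). RPL22L1, the paralogue of RPL22, fell by 1.03 ± 0.12 (adjusted p = 0.00028) while RPL22 fell by 1.69.

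Among 17 other messenger RNAs of the TOP class, 14 fell in PL vs MG and none rose, with a median of -1.45 (background 23% lower). The elongation factor genes EEF1A1 (11747 to 3752 units on average, -1.73 ± 0.39) and EEF1B2 (-1.88 ± 0.28) fell further than the ribosomal protein median, and TPT1 held 11544 units in MG and 8637 in PL, a difference of -0.49 ± 0.22 that was not called (adjusted p = 0.12). PABPC1 was listed at 0 in every counted PL sample, and a gene that all cells use may have failed to be estimated there. Under median ratio scaling 10 of the 17 fell (background 5.96%), and EEF1A1 (-1.07, adjusted p = 0.11) was not among them.

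Of 30 genes of ribosome biogenesis, 22 fell in PL vs MG and 25 rose in W2 vs PL, with medians of -0.97 and 1.16 (background 23% lower and 30.4% higher). NPM1, the nucleolar chaperone, fell by 1.60 ± 0.18 (adjusted p = 0.0002), and NCL, which encodes nucleolin, was not called (-0.68 ± 0.75, adjusted p = 0.54). In the 77 genes of the mitochondrial ribosome 52 fell beside the same 23%, with a median of -0.81, closer to the median of all genes. With median ratio scaling the medians were -0.34 for biogenesis with 3 of 30 falling, and -0.18 for the mitochondrial ribosome with 10 of 77 falling, where 5.96% of all genes fell.

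Of 8 genes that regulate ribosomal protein synthesis, MYC and MYCN fell in PL vs MG and rose in W2 vs PL, and the other 6 were not called in either. A count of 2 of 8 is close to the background of 23% lower and below that of 30.4% higher. MYC, a transcription factor for many ribosomal genes, averaged 11.4 units in MG, 3.17 in PL and 14.1 in W2 (-1.86 ± 0.39, adjusted p = 0.0054, and 2.14 ± 0.39 in W2 vs PL). With median ratio scaling MYC was not called in PL vs MG (-1.26, adjusted p = 0.11), RPS6KB1 (0.89) and EIF4EBP1 (0.96) were called higher (background 5.04%), and the median of the 8 went from -0.32 to 0.32. MTOR, the kinase that drives translation of TOP messenger RNAs, averaged 9.05 units in MG and 8.94 in PL (0.15 ± 0.53, adjusted p = 0.88). Of 7 milk protein genes 5 rose in PL vs MG (background 2.23%) and 6 fell in W2 vs PL (2.48%).

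**Figure D5:**
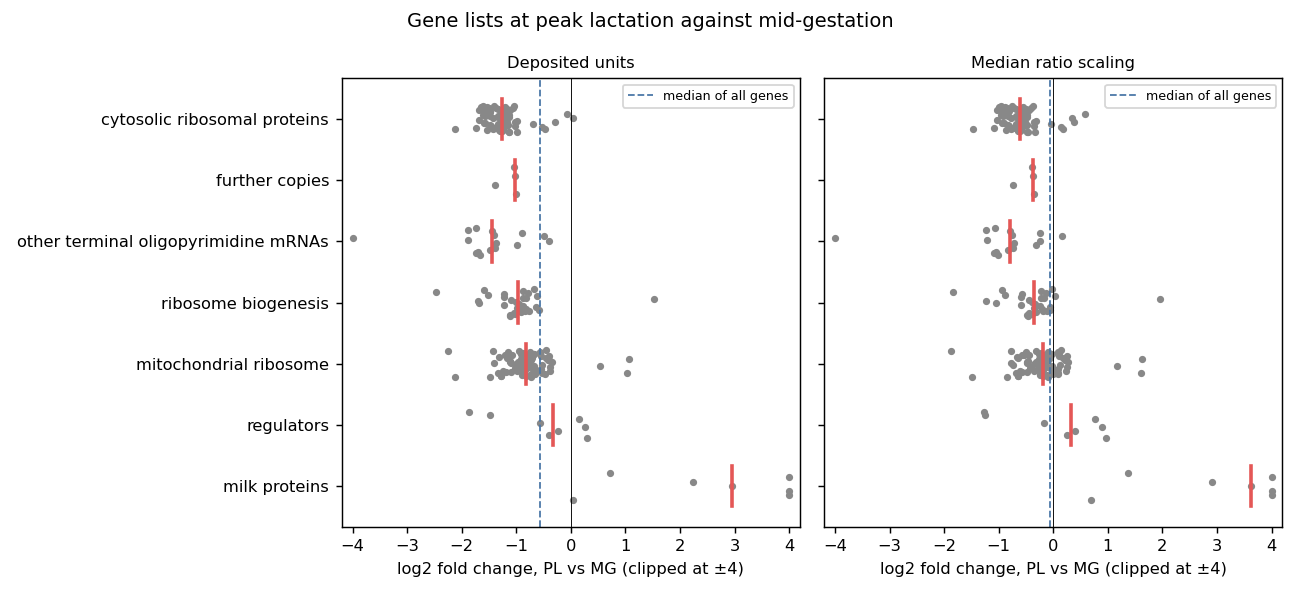
log2 fold change in PL vs MG (horizontal axes, clipped at ±4) of each gene (points) in 7 lists, with the list median (red bar) and the median of all genes (dashed line), for the deposited units on the left and after median ratio scaling on the right. The dashed line moves from -0.57 to -0.05, and the bar of the cytosolic ribosomal proteins from -1.27 to -0.61.

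The 78 genes lie on 17 chromosomes, with 12 on chromosome 6, 10 on chromosome 1 and 4 on X (RPS4X, RPL36A, RPL39 and RPL10), so the shared fall was not tied to 1 region. RPS2 and RPL3L lie near each other on chromosome 3, with means of 685 and 0.424 units over the 15 samples. Mammalian genomes carry many processed copies of ribosomal protein genes, and how reads that match several places were assigned is not given in the sources used here, so the level of any single member is less certain than the sum.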

How the data were processed

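RNA of mammary parenchyma was sequenced in 30 samples, 6 for each of 5 stages. Per the study's methods, the authors aligned trimmed reads with HISAT2 to Sscrofa11.1, and StringTie served for assembly and transcript levels. The authors deposited 1 table of transcript values that they call FPKM, kept at 0.5 or more in at least 1 stage. Each column adds up to between 997480 and 1002600, so the deposited values were handled as TPM, and whether the correction for unwanted variation that the methods name is in them is not given in the sources used here. Transcripts were matched to genes by RefSeq accession (32685 matched, 29047 assembled, 41 others) and summed. The table holds no read counts, so no count model was run, and the read totals that the study lists per sample were not used here.

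Log2(units + 0.5) of the 15 counted samples was fitted with limma 3.58.1 (R 4.3.3, trended variance) over all 5 stages without covariates, and 6 contrasts were adjusted by Benjamini-Hochberg over 26019 genes. The script was tested on simulated data. P-values rest on the spread between counted samples within stages, pooled over the 5 stages into a single value per gene and moderated over all genes. For the ribosomal protein genes the median coefficient of variation was 32.7% among PL samples. It was 6.78% for MG, 8.48% for LG, 14.5% for EL and 6.83% for W2. A pooled spread can therefore understate that of PL, which every comparison with calls among these genes uses. Genes named were the 10 highest and 5 lowest members, the 5 largest called changes in either direction of PL vs MG and W2 vs PL on both scales, copies, members with known other roles or that the study names, and members with several transcripts, and a few others were named after their values were seen. Some genes that this rule names are not reported here. The members and lists were chosen with earlier results of these data known. Alternatives were the scaling, pseudocount, filter, transcripts, samples and replicate block.

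The replicate numbers in the titles do not pair animals across stages: 19 pairs of the same number had correlations of deviations from -0.0994 to 0.137, and 71 pairs of other numbers from -0.109 to 0.182. No sequences of these genes were used here.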

Additional observations from a re-analysis of the deposited data

How the results depend on the processing

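Results rest on 3 animals a stage and on shares of a total, from a table without read counts. The medians of LG vs MG and W2 vs MG, where no gene was called, changed sign with median ratio scaling. RPS27L, RPS16, RPLP2, RPS12 and RPS21 turned from lower to higher in PL vs MG with member median scaling. For counts of called genes 148 alternative values stayed within 1.5 times and 14 did not. The 148 include LG vs MG, EL vs LG and W2 vs MG, which gave 0 calls in every setting but all 6 columns a stage. The 148 are therefore no measure of how stable the counts of the other comparisons are. For medians 145 stayed within the spread and 11 moved, and for the named genes 261 kept their side of the threshold and 9 lost the call. All 6 columns a stage, which count near-copies as animals, gave 3 calls in LG vs MG, 29 in EL vs LG and 4 in W2 vs MG. In those fits 3688, 5692 and 2254 of all 26019 genes were called. PL vs EL gave 0 calls with the compared stages alone, 32 with quantile normalization and 36 of 131 with single transcripts. Over all features these fits called 43 of 26019 genes, 1389 of 26019 genes and 431 of 61773 transcripts. With the compared stages alone W2 vs PL gave 24 calls and PL vs MG gave 15. Member median scaling takes out the change that the genes share, so its counts cannot show whether that change holds. With member median scaling there were 11 calls in PL vs EL (8 lower, 3 higher) and 17 in W2 vs PL (12 higher, 5 lower). PL vs MG gave 19 with member median scaling (11 lower, 8 higher). Leaving out 1 sample gave 17 to 63 calls in PL vs EL (17 without EL sample 3, 24 without EL sample 6), 65 to 71 in PL vs MG and 65 to 70 in W2 vs PL. In the fits at the ends of these ranges, 432 and 1320, 3513 and 7076, and 6969 and 8989 of 26019 genes were called.

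With median ratio scaling the median log2 fold changes were 0.089 in LG vs MG, -0.071 in EL vs LG, -0.61 in PL vs MG, 0.54 in W2 vs PL and -0.060 in W2 vs MG. With quantile normalization they were -0.077 in EL vs LG, -0.42 in PL vs EL, -0.55 in PL vs MG and 0.59 in W2 vs PL. Without milk protein and mitochondrial transcripts the LG vs MG median was 0.031, and the shares were 26.9, 27.5, 24.8, 14.1 and 26.5% in MG, LG, EL, PL and W2. The cause of these shifts was not tested beyond the scaling itself.

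A replicate block, although the numbers do not pair the animals, gave 4 calls in PL vs EL, 60 in PL vs MG and 68 in W2 vs PL, and a W2 vs MG median of 0.16. With this block 225, 2986 and 7873 of all 26019 genes were called in the same 3 comparisons.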

Other observations

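RPL4 and RPL13, whose levels were uneven within stages, were each matched in reverse by 1 assembled transcript without a gene name, found by a search of 29034 and 29029 assembled transcripts after the values were seen. MSTRG.935.1 held 1496 units in EL sample 4, 1900 in W2 sample 2 and 627 in W2 sample 3, and at most 181 elsewhere. RPL4 was low in the first 2 of those samples, and the sum of RPL4 and MSTRG.935.1 was 1746 in EL sample 4 and 2271 in W2 sample 2. The SD over 15 samples of the log2 difference from the median ribosomal protein gene was 1.03 for RPL4 and 0.12 for the sum, and the next best assembled transcript gave 0.49. For RPL13 with MSTRG.7102.3 it went from 0.92 to 0.06, with 0.40 for the next best. Summed with MSTRG.7102.3, RPL13 stood at 1460, 1656 and 1533 units in MG, 454, 760 and 826 in PL and 1721, 1625 and 1423 in W2. The same search over the 5 other uneven genes gave weaker matches. The SD went from 0.58 to 0.32 for RPL32 (next best 0.37), from 0.59 to 0.19 for RPS15 (0.34), from 0.72 to 0.26 for RPS27A (0.39), from 1.69 to 0.40 for RPL11 (0.60) and from 0.56 to 0.27 for RPS24 (0.33). Summed with MSTRG.8456.4, RPL32 stood at 2883, 2543 and 3085 units in MG and at 961, 1762 and 2270 in PL. The best match of RPL11 was MSTRG.8456.2, which shares the locus number of MSTRG.8456.4. RPL11 lies on chromosome 6 and RPL32 on chromosome 13, so a single locus cannot belong to both genes. Each transcript was picked for the lowest SD of its sum, so that lower SD is no support for the match. The median ribosomal protein gene that the sums were picked to follow was itself lowest in PL. A low sum in PL was therefore favoured by the search and is no result about these genes. The position of these transcripts is not given in the table, and no test was made.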
